A study of Mus musculus with 2 samples.

Results

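Iron handling in the heart was described through 8 genes, chosen by name as the genes of iron storage, uptake and export, out of 55536 annotated genes measured in the series. They encode the ferritin chains (Fth1 and Ftl1), the transferrin receptor (Tfrc), the ferrous iron transporter DMT1 (Slc11a2), the exporter ferroportin (Slc40a1), the hormone hepcidin (Hamp) and the iron regulatory proteins IRP1 (Aco1) and IRP2 (Ireb2). Total RNA depleted of ribosomal RNA, with ERCC spike-in RNAs added and 300 ng as the starting amount, was sequenced from the heart of female B6CASTF1/J mice, an F1 hybrid of C57BL/6J and CAST/EiJ, at 25 days. There were 2 libraries, replicate 1 and replicate 2, in 1 group; the donor label is the same for both, but the animal number is not, so each was treated as 1 animal. With no treatment and no second condition in the labels, the design allows levels, transcript usage and a comparison of the libraries with each other. Nothing in the labels names separate dissections or extractions, so a difference between the libraries may be technical.

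Cells take up transferrin-bound iron through the transferrin receptor, move it out of the endosome through DMT1, store what is not used in ferritin and release it through ferroportin, which hepcidin blocks and sends for degradation. The 2 iron regulatory proteins bind hairpins called iron-responsive elements when iron is scarce: binding in the 5′ UTR blocks translation of the messenger RNA, and binding in the 3′ UTR of the transferrin receptor messenger protects it from decay. Much of this control therefore acts on translation or stability, and RNA levels do not give protein levels. In the mouse heart, cardiomyocytes are known to need transferrin receptor for their iron supply and to make both hepcidin and ferroportin.

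The hairpins are shown first because they set the 8 genes apart by position and sequence. The annotated transcripts (GENCODE M21, mm10) were searched on their own strand for a C, any 5 bases, the loop CAGTGN and 5 bases that pair with the first 5, allowing G-T pairs; a second form allowed 1 unpaired base on the 3′ side. The Fth1, Ftl1 and Slc40a1 transcripts held 1 match each in the 5′ UTR, Tfrc held 4 in the 3′ UTR, and Slc11a2 held 1, of the second form, in the 3′ UTR of 1 transcript. The letters are those of the reference transcripts, and CAST/EiJ alleles were not examined. Each match is printed with its flanking bases, 29 in all and 5′ to 3′, and the capitals mark the loop.
Fth1: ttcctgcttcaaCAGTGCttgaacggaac
Ftl1: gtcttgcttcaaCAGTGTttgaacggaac
Slc40a1: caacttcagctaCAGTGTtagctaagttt
Tfrc site 1: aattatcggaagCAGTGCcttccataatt
Tfrc site 2: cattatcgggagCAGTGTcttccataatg
Tfrc site 3: ctatatcggagaCAGTGAtctccatatgt
Tfrc site 4: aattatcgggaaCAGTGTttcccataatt
Slc11a2: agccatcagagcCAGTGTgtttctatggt

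The Fth1 stretch lies at chr19:9982732-9982760 on the plus strand, and the Ftl1 stretch at chr7:45459779-45459807 on the minus strand. Those of Slc40a1 lie at chr1:45925465-45925493 and of Slc11a2 at chr15:100395153-100395181, both on the minus strand. The Tfrc sites lie on the plus strand at chr16:32631219-32631247, chr16:32631598-32631626, chr16:32631663-32631691 and chr16:32631710-32631738. The ferritin stretches were alike at 26 of 29 bases, whereas Fth1 and Slc40a1, both of the 5′ UTR, were alike at 13. Among the Tfrc sites the pairs were alike at 18 to 25 of 29 bases. Of 21901 protein-coding genes, 31 (0.142%) held the first form in an annotated 5′ UTR of any length and 129 (0.589%) in a 3′ UTR; with the second form included these were 82 (0.374%) and 357 (1.63%). A match is a description of letters, and the absence of one in Hamp, Aco1 and Ireb2 says only that these letters were not found in their transcripts.

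**Figure D1:**
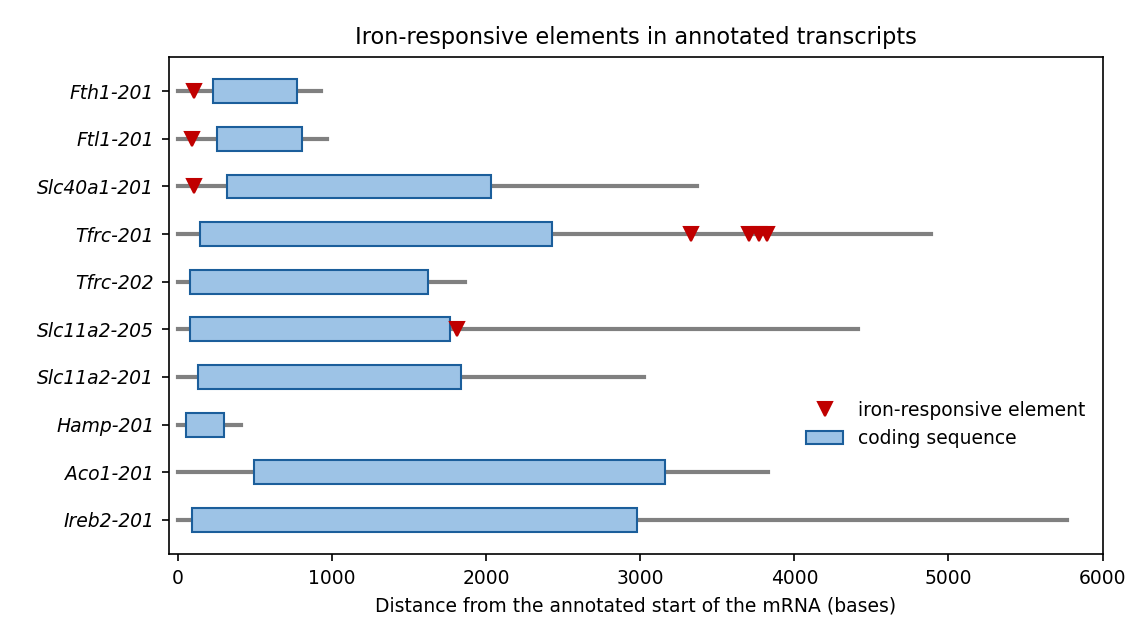
Positions of the iron-responsive element matches (red triangles) in 10 annotated transcripts, with the distance from the annotated start of the mRNA in bases on the horizontal axis; blue boxes are coding sequence and grey lines untranslated sequence. The matches of Fth1-201, Ftl1-201 and Slc40a1-201 lie before the coding sequence, those of Tfrc-201 and Slc11a2-205 after it, and Tfrc-202 and Slc11a2-201 hold none.

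Depth was similar, with 42966739 expected counts over annotated genes in replicate 1 and 42720824 in replicate 2. The heart label was borne out by its markers: all 8 cardiomyocyte genes were above 1 TPM in both animals, led by the myosins Myh6 (9386 and 9899 TPM in replicates 1 and 2) and Myl2 (7734 and 8081 TPM). Blood RNA was present, with the globins Hbb-bs at 3838 and 3887 TPM and Hba-a1 at 3512 and 3191 TPM. Liver genes stood apart between the libraries, and the albumin gene Alb had 2 and 907 counts in replicates 1 and 2. By the criteria given with the comparison of the animals, 8 of 12 hepatocyte genes were counted as differing, beside 0.821% of all genes tested. All 8 were higher in replicate 2 (Alb, Apob, Apoa1, Ttr, Serpina1a, Fgb, Fga and Cyp2e1). In bulk RNA, fewer cells of a type and less RNA per cell cannot be told apart, which holds for every level below.

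All 8 genes were detected, at 1 TPM or more in both animals, and together they held 1174 ± 1.93 TPM (SD, n = 2). TPM is an abundance per length, so levels of different genes can be set side by side. Values come from the alignment-based gene tables unless the read-based tables, summed here from transcripts, are named. Fth1 alone made up 81.9% of that sum in replicate 1 and 82.2% in replicate 2. Ranked by mean TPM among 22015 nuclear protein-coding genes, Fth1 was number 45, Ftl1 692, Tfrc 769, Slc11a2 2860, Ireb2 4193, Aco1 4257, Hamp 5978 and Slc40a1 6511. For scale, 10972 of those genes were detected.

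**Figure D2:**
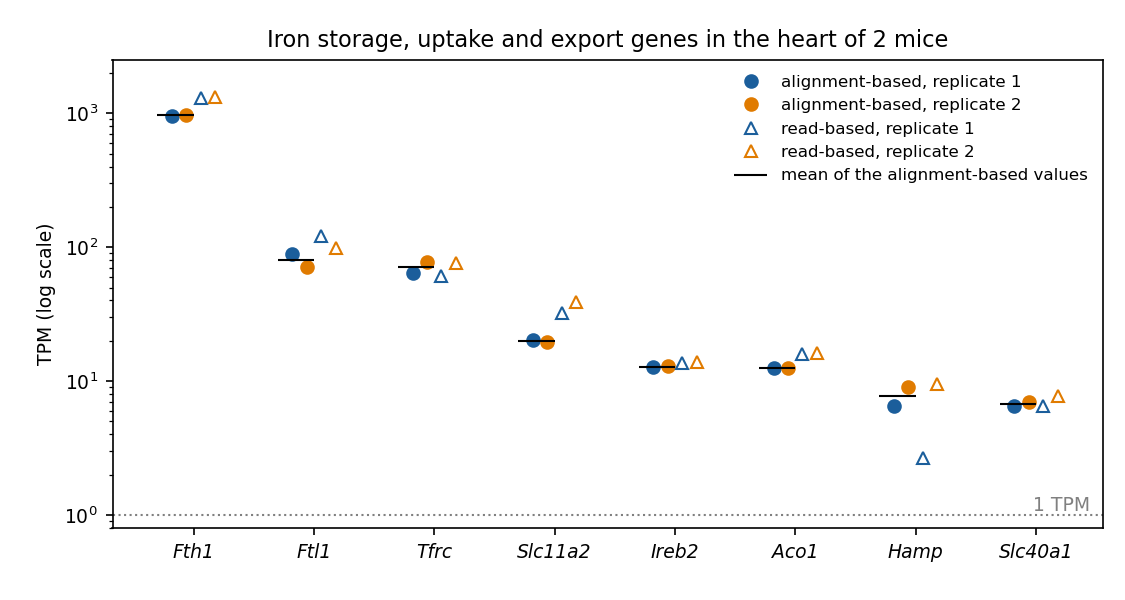
TPM on a log axis for each of the 8 genes, ordered by mean; circles are alignment-based and open triangles read-based values, blue for replicate 1 and orange for replicate 2, and black bars mark the alignment-based mean. Fth1 lies near 1000 TPM, Ftl1 and Tfrc lie together between 61.1 and 121.7 TPM, and replicate 1 of Hamp in the read-based tables is the lowest point at 2.68 TPM.

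Storage led by far. Fth1 (chr19:9980598-9985098), the ferritin heavy chain that oxidises ferrous iron as it enters the shell, had 962.7 TPM in replicate 1, against 963.0 TPM in replicate 2, from 26962 and 27862 counts. In alignment-based TPM the 2 animals were almost equal, and the mean was 962.8 ± 0.21 TPM (SD, n = 2). The deposited credibility intervals, 935 to 959 TPM and 936 to 960 TPM, lay just below these values, since they surround the posterior means of 947.0 and 947.9 TPM. In the read-based tables Fth1 was at 1298 and 1319 TPM, and the summed TPM of all nuclear protein-coding genes was likewise 1.29 and 1.33 times that of the gene tables. Rescaled to nuclear protein-coding genes, the alignment-based values of Fth1 were 2434 TPM in replicate 1 and 2507 TPM in replicate 2.

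Ftl1 (chr7:45457944-45459884), the ferritin light chain that favours building of the iron core, had 89.2 TPM in replicate 1, against 70.9 TPM in replicate 2, and a mean of 80.1 ± 12.97 TPM (SD, n = 2), from 2591 and 2144 counts. Replicate 1 was the higher, and the credibility intervals, 83.2 to 93.1 TPM and 66.1 to 74.5 TPM, did not overlap. Fth1 thus stood 10.8-fold above Ftl1 in replicate 1 and 13.6-fold in replicate 2, or 10.7-fold and 13.5-fold in the read-based tables. On the log2 scale, with 0.1 TPM added, the difference was 3.60 ± 0.23 (SD, n = 2).

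The Ftl1 value is uncertain because a near copy takes a similar number of reads. Ftl1-ps1, a protein-coding entry on chromosome 13 despite its pseudogene name, matched Ftl1 at 99.6% of 910 aligned bases and was listed at 94.5 and 76.5 TPM in replicates 1 and 2, and at 195.5 and 147.6 TPM in the read-based tables. It holds the same 29 bases around the hairpin as Ftl1. The processed pseudogene Ftl2-ps, 98.7% identical over 552 bases, was at 15.5 and 10.01 TPM, against 0.188 and 0.870 TPM in the read-based tables, so the quantifications disagreed on its level. With every Ftl-named entry added, light-chain sequence summed to 199.3 and 157.4 TPM, and with the Fth-named entries added to Fth1 the heavy chain stood 4.83-fold and 6.12-fold above it, a log2 difference of 2.44. In the read-based tables the heavy chain, summed likewise, stood 4.09-fold and 5.36-fold above, a log2 difference of 2.23. Of 14 Fth- or Ftl-named entries beside the parents, 10 were at 0 in both animals and both quantifications. Reads of Fth1 had little such competition: its 1 similar entry, the pseudogene Gm6977, found by sequence match, was at 1.30 and 1.65 TPM.

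Uptake came next. Tfrc (chr16:32608920-32632794), the receptor for transferrin, had 64.5 TPM in replicate 1, against 77.1 TPM in replicate 2, and a mean of 70.8 ± 8.93 TPM (SD, n = 2), from 8934 and 11210 counts. Here replicate 2 was the higher, and the intervals of 61.9 to 66.6 TPM and 74.0 to 79.1 TPM did not overlap. Tfrc had no similar sequence in another gene (at 90% identity over 100 bases or more). Slc11a2 (chr15:100387898-100425072), the proton-coupled transporter DMT1, had 20.2 TPM in replicate 1, against 19.7 TPM in replicate 2, and a mean of 19.95 ± 0.40 TPM (SD, n = 2). Its read-based values were higher, at 32.4 and 39.1 TPM, and its transcripts, described further on, were assigned differently there.

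Export and its hormone were the lowest pair. Slc40a1 (chr1:45908068-45926523), which encodes ferroportin, the iron exporter, had 6.49 TPM in replicate 1, against 6.94 TPM in replicate 2, and a mean of 6.72 ± 0.32 TPM (SD, n = 2), from 637 and 687 counts. Tfrc therefore stood 9.94-fold above Slc40a1 in replicate 1 and 11.1-fold in replicate 2. Macrophages also express ferroportin, and the 12 macrophage markers summed to 99.9 TPM in replicate 1, against 71.2 TPM in replicate 2. Of these markers, 7 of 12 were past the adjusted p and higher in replicate 1, beside 10.9% of all genes tested. With total-count and spike-in scaling it was 9 of 12 each time, beside 2097 and 3690 of all 15839 genes tested. The part of macrophages in the Slc40a1 level was not tested. The leading markers, the complement genes C1qb and C1qa, were at 18.6 and 12.9 TPM and at 18.0 and 13.2 TPM in replicates 1 and 2.

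Hamp (chr7:30942368-30944032), which encodes hepcidin, had 6.47 TPM in replicate 1, against 9.0 TPM in replicate 2, and a mean of 7.74 ± 1.79 TPM (SD, n = 2), from 68.0 and 97.7 counts. Replicate 2 was the higher, but the intervals of 4.93 to 7.98 TPM and 7.13 to 10.7 TPM overlapped. The read-based tables gave 10 and 37 counts, or 2.68 and 9.54 TPM. The paralog Hamp2, 93.3% identical over 417 aligned bases, was at 2.49 and 2.62 TPM, against 0.249 TPM and a listed 0 in the read-based tables. Both genes together had 95 and 127 counts in the gene tables, and 11 and 37 in the read-based tables. Liver is the main source of hepcidin in the body, and the 12 hepatocyte markers summed to 22.99 TPM in replicate 1, against 50.5 TPM in replicate 2. Of these sums, the transferrin gene Trf held 15.3 TPM in replicate 1 and 15.6 TPM in replicate 2. Of the 12 markers, 3 were at 1 TPM or more in both animals, and 4 were at 0 TPM in replicate 1. The albumin gene Alb was at 0.03 TPM in replicate 1, where Hamp was at 6.47 TPM, and at 13.4 TPM in replicate 2. The part of liver RNA in the difference between the animals was not tested.

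The sensors were nearly equal to each other. Aco1 (chr4:40143081-40198338), whose product is a cytosolic aconitase with an iron-sulfur cluster and the RNA-binding protein IRP1 without it, was at 12.6 TPM in both animals, a mean of 12.6 ± 0.04 TPM (SD, n = 2), from 1556 and 1623 counts. Ireb2 (chr9:54863789-54912530), whose product IRP2 is degraded when iron is plentiful, was at 12.7 and 12.9 TPM, a mean of 12.8 ± 0.15 TPM (SD, n = 2), from 2429 and 2501 counts. Ireb2 was 1.01-fold and 1.03-fold the Aco1 level in the gene tables but 0.863-fold and 0.855-fold in the read-based tables, so their order depends on the quantification.

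In the order of levels, neighbours were called apart only where their ranges over both animals and both quantifications did not overlap. Fth1 (962.7 to 1319 TPM) was apart from Ftl1 (70.9 to 121.7 TPM), Tfrc (61.1 to 77.1 TPM) from Slc11a2 (19.7 to 39.1 TPM), Slc11a2 from Ireb2 (12.7 to 13.9 TPM), and Aco1 (12.6 to 16.3 TPM) from Hamp (2.68 to 9.54 TPM). Ftl1 and Tfrc, Ireb2 and Aco1, and Hamp and Slc40a1 (6.48 to 7.72 TPM) overlapped and were not ordered.

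The animals were compared gene by gene on rounded expected counts scaled with TMM factors, using a two-sided exact binomial test with Benjamini-Hochberg adjustment over the 15839 genes that averaged 10 counts or more. With 1 library per animal, the test compares these libraries on counting error alone and holds no spread within an animal. Ratios are replicate 1 over replicate 2, with exact 95% counting intervals. Of the 8 genes, all were tested and 4 passed an adjusted p of 0.05, beside 20.3% of all genes tested: Ftl1 was higher in replicate 1 (background 10.9%), and Fth1, Tfrc and Slc11a2 were higher in replicate 2 (background 9.43%). The background split, 1722 genes higher in replicate 1 and 1493 in replicate 2, became 2097 and 1076 with scaling by total counts, and 3690 and 508 with scaling by spike-in totals. None of the 8 was counted as differing, which also needed a ratio of at least 2 either way and separate credibility intervals, beside 130 genes (0.821%) of all tested. Hamp had an unadjusted p of 0.0129 (exact binomial test) but did not pass the adjusted p. With read-based counts, to which no credibility interval applies, 1 of the 8, Hamp, was counted as differing, beside 340 of all 16592 genes tested there. The median log2 ratio of the 8 was -0.12, beside 0.00 over all genes tested, whose quartiles were -0.12 and 0.17.

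The largest of these differences by its test was Tfrc, at a ratio of 0.776 (0.755 to 0.798; adjusted p = 1.27e-69 in the exact binomial test). It was between 0.773 and 0.832 under TMM, DESeq2, total-count and spike-in scaling and in the read-based counts. With TMM scaling, 7 of 8 cardiomyocyte markers also passed the adjusted p and were higher in replicate 2, with Ttn the exception. With spike-in scaling, 5 of 8 passed higher in replicate 2, and the other 3 (Actc1, Ryr2 and Ttn) passed higher in replicate 1. The cardiomyocyte markers summed to 34710 TPM in replicate 1, against 35944 TPM in replicate 2. Their part in the Tfrc ratio was not tested. Ftl1 had a ratio of 1.18 (1.11 to 1.25; adjusted p = 4.87e-07, exact binomial test), and its near copy Ftl1-ps1 had 1.16 (1.10 to 1.23). In the same direction, fibroblast, endothelial and atrial markers passed higher in replicate 1 for 4 of 7, 5 of 7 and 3 of 4 genes. Among those that passed were Col3a1 (178.8 and 124.0 TPM), Fabp4 (314.6 and 251.7 TPM), Cdh5 (59.0 and 49.3 TPM), Nppa (840.0 and 638.9 TPM) and Myl4 (320.2 and 262.5 TPM), whereas the fibroblast gene Dcn (165.8 and 152.8 TPM) did not pass. Their sums were 543.4 and 436.4 TPM, 528.3 and 435.8 TPM, and 1475 and 1153 TPM in replicates 1 and 2, and their part in the Ftl1 ratio was not tested.

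Fth1 and Slc11a2 passed with small ratios that the alignment-based TPM did not show. Their read-based TPM was higher in replicate 2 (Fth1 1298 and 1319, Slc11a2 32.4 and 39.1 TPM in replicates 1 and 2). Fth1 had a ratio of 0.942 (0.926 to 0.958, adjusted p = 9.72e-11 in the exact binomial test), while its alignment-based TPM was almost equal. With spike-in scaling the Fth1 ratio turned to 1.01 and no longer passed. Slc11a2 had a count ratio of 0.892 (0.827 to 0.962, adjusted p = 0.0175 in the exact binomial test), whereas its alignment-based TPM was higher in replicate 1. That TPM divides by the deposited effective length, which was 1928 bases in replicate 1 and 2096 bases in replicate 2. Slc11a2 did not pass with total-count scaling (adjusted p = 0.0681) or spike-in scaling (adjusted p = 0.433) in the same test.

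The remaining genes did not pass. Hamp had the ratio farthest from 1, at 0.676 (0.488 to 0.930; adjusted p = 0.0603, exact binomial test), and in the read-based counts 0.263 (0.117 to 0.540; adjusted p = 0.000541, exact binomial test). Slc40a1 had a ratio of 0.903 (0.809 to 1.01), Aco1 0.933 (0.870 to 1.00) and Ireb2 0.946 (0.894 to 1.00). Any difference of these 3 genes within those intervals was not detectable at this depth.

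**Figure D3:**
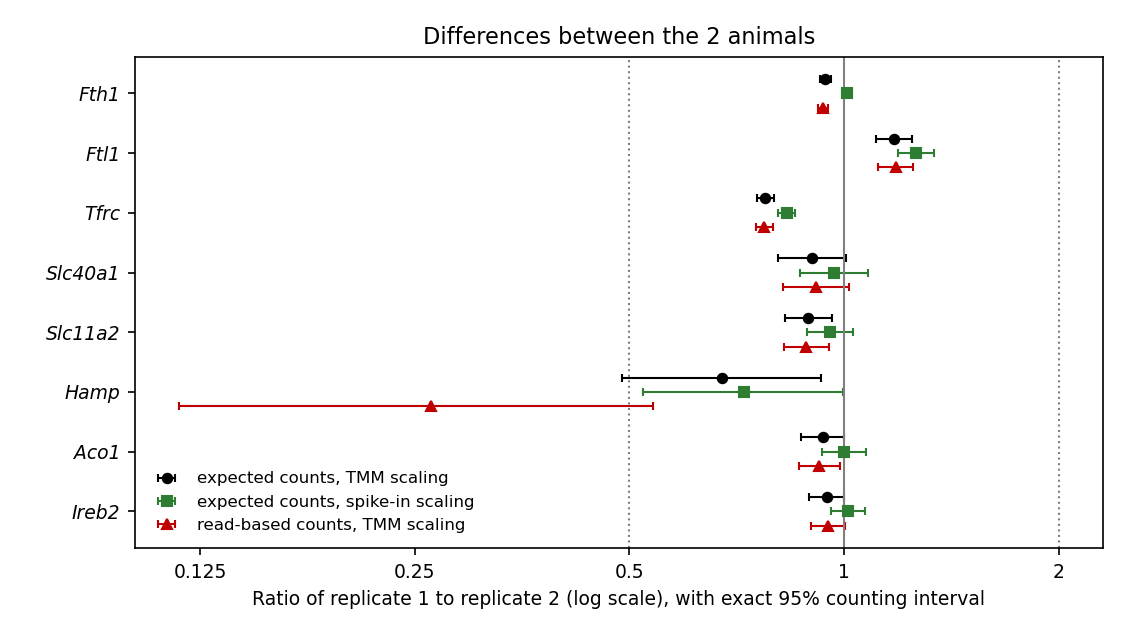
Ratio of replicate 1 to replicate 2 on a log axis for each gene, with exact 95% counting intervals as bars, from expected counts under TMM scaling (black), the same counts under spike-in scaling (green) and read-based counts (red). Ftl1 lies right of 1 and Tfrc and Hamp left of it in every setting, dotted lines mark ratios of 0.5 and 2, and the point estimate of Hamp passes the lower line only in the read-based counts (0.263).

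Annotated transcripts of a gene differ in whether they carry the hairpin. In Fth1, 1 transcript, Fth1-201, held 98.9% of the gene in replicate 1 and 99.0% in replicate 2, and 90.3% and 90.2% in the read-based tables. The rest there went mostly to Fth1-203, which starts farther upstream and was at 113.2 and 118.7 TPM, against 0 in both animals in the alignment-based tables. Both transcripts hold the hairpin, and transcripts with it made up 98.9% to 99.9% of Fth1 across animals and quantifications. In Ftl1, Ftl1-201, which holds the hairpin, made up 96.7% and 98.8%. Slc40a1-201 held 86.3% and 84.0% of ferroportin RNA, and transcripts with the hairpin 88.3% and 85.4%, or all of it and 87.8% in the read-based tables. The remainder of Slc40a1 lay in short models that rest on few counts: Slc40a1-207 had 4.21 and 0 counts in replicates 1 and 2, and Slc40a1-205 had 0 and 8.46.

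In Tfrc the quantifications differed. Tfrc-201, 4890 bases long with all 4 matches of the search, held 76.6% in replicate 1 and 80.0% in replicate 2. Tfrc-202, 1860 bases long with none, held 19.8% and 17.5%. In the read-based tables Tfrc-202 was at 3.22% and 3.25%, and Tfrc-201 at 95.8% and 95.4%. The animals agreed more closely with each other within a quantification than the quantifications did with each other. Transcripts with hairpins made up 78.7% and 80.4% of Tfrc in the alignment-based tables.

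Slc11a2 was the gene with the most divided usage. Of its 6 protein-coding transcripts among 8 in all, only Slc11a2-201 and Slc11a2-205 are annotated as complete at both ends. Slc11a2-205 has the 3′ UTR hairpin, the form known as +IRE, and Slc11a2-201 has none. Slc11a2-205 was at 5.28 and 5.29 TPM in replicates 1 and 2, and Slc11a2-201 at 4.02 and 4.83 TPM. Of these transcripts together, 56.8% was Slc11a2-205 in replicate 1 and 52.3% in replicate 2, a mean of 54.5% ± 3.18 (SD, n = 2), and 58.4% and 57.8% in the read-based tables. Both forms were thus present at similar levels in both animals. Of the whole gene, however, the hairpin form was 26.1% and 26.9%, or 18.7% and 16.4% read-based. Slc11a2-201 and Slc11a2-205 together held 46.0% and 51.5% of the gene in replicates 1 and 2, or 32% and 28.3% read-based, and the rest was assigned to the other models, which are 387 to 718 bases long. Slc11a2-207, 389 bases long, held 20.8% and 22.8% from 41.2 and 45.5 counts, and was at 0 in the read-based tables. Slc11a2-208, 387 bases long, was at 0 in the alignment-based tables but at 11.9 and 15.8 TPM read-based, from 39.0 and 53.9 counts, the highest of the gene there. These entries carry few counts against 397.5 and 493.9 for Slc11a2-201 and 770.5 and 797.5 for Slc11a2-205.

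**Figure D4:**
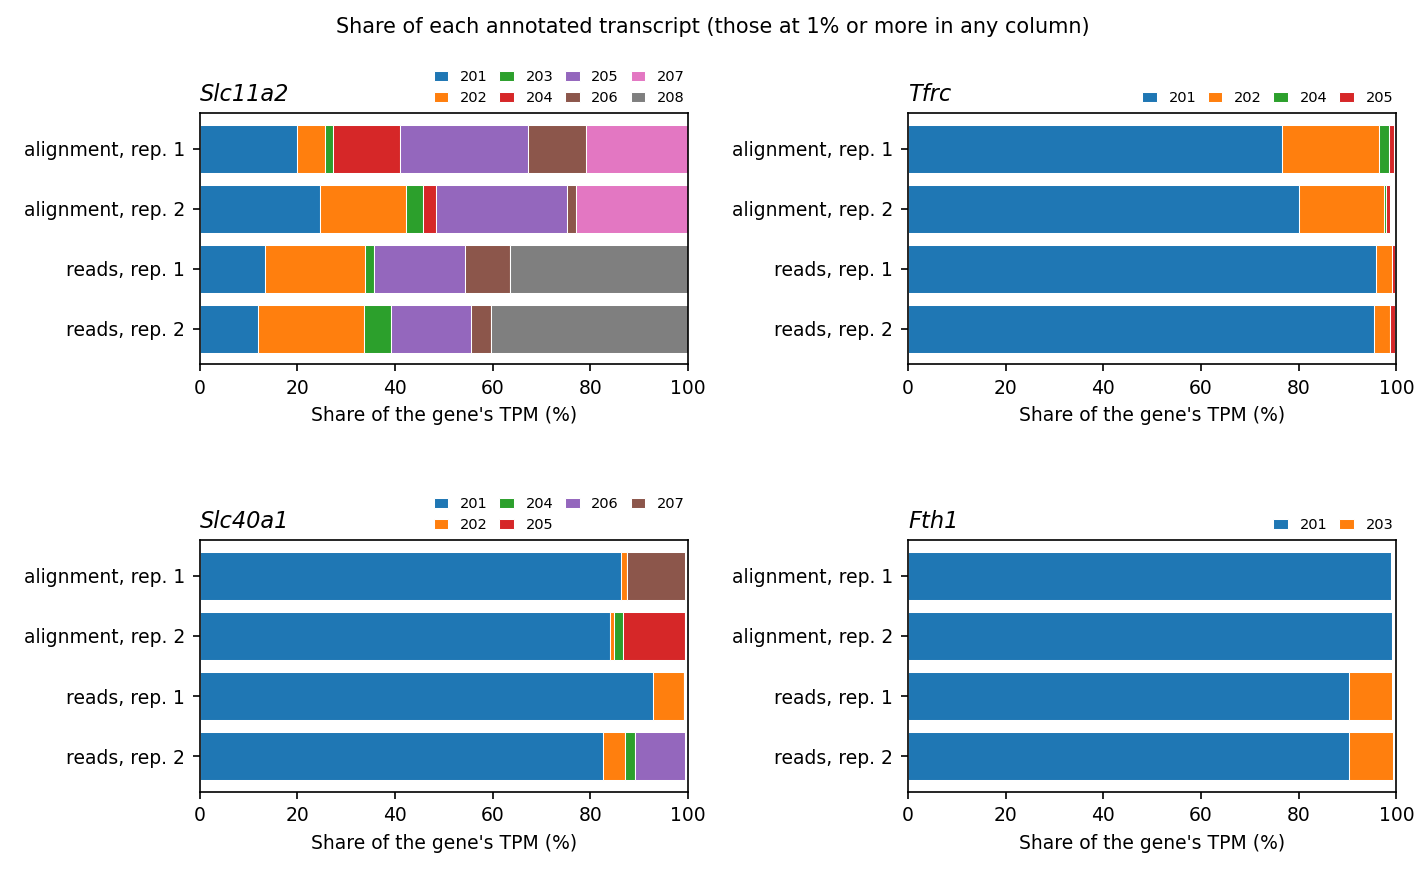
Share of the gene's TPM in percent for the annotated transcripts of Slc11a2, Tfrc, Slc40a1 and Fth1 that reach 1% in any row; each panel has 4 bars, for replicates 1 and 2 in the alignment-based and then the read-based tables. Slc11a2 is divided over many transcripts, Tfrc-202 shrinks from 19.8% and 17.5% to 3.22% and 3.25% between quantifications, and Fth1-201 leads throughout.

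Aco1-201 held 97.9% and 98.6% of Aco1, Ireb2-201 held 98.8% and 96.8% of Ireb2, and Hamp has a single transcript. Other annotated genes overlapping the 8, such as Gm10252 at Ftl1 and Gm44662 at Hamp, were all at 0 expected counts in both animals. Any effect of overlap on the values of the 8 was not tested.

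The wider pathway was read through 8 lists with 101 genes, chosen with earlier results of these data known. Of these, 86 were detected, 95 were tested, 10 passed the adjusted p higher in replicate 1 and 9 higher in replicate 2, and none was counted as differing, beside the backgrounds of 10.9%, 9.43% and 0.821%. The split depends on the scaling: 12 passed higher in replicate 1 and 6 in replicate 2 with total counts, and 28 and 1 with spike-in totals. The median log2 ratio of the tested pathway genes was -0.05.

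Among partners of uptake, 9 of 16 genes were detected, with medians of 1.58 TPM in replicate 1 and 1.30 TPM in replicate 2. The scavenger receptor Lrp1 was at 34.7 and 25.9 TPM, the metal transporter Slc39a14, which takes up iron not bound to transferrin, at 32.9 and 26.4 TPM, and transferrin itself, Trf, at 15.3 and 15.6 TPM. Of these genes, 5 passed higher in replicate 1: Lrp1 (ratio 1.17), Slc39a14 (1.22) and, named after their values were seen, Slc39a8 (1.96 and 1.26 TPM), Lrp2 (0.44 and 0.30 TPM) and Scara5 (5.31 and 4.01 TPM); none passed higher in replicate 2, which was the direction of Tfrc. Tfr2, the second transferrin receptor, was at 0.03 and 0.08 TPM and was not detected.

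Ferritin's partners were among the highest. The iron chaperone Pcbp2 was at 193.9 and 174.3 TPM, the ubiquitin ligase subunit Skp1a at 98.03 and 93.05 TPM and the chaperone Pcbp1 at 64.0 and 59.9 TPM; 8 of 9 genes were detected and none of 8 tested passed, with a median log2 ratio of 0.00, while 5 passed higher in replicate 1 with spike-in scaling. Mitochondrial ferritin, Ftmt, had no counts in either animal. For export, 3 of 5 genes were detected in both animals; App, the amyloid precursor linked to ferroportin at the membrane, was at 60.4 and 50.0 TPM and passed higher in replicate 1 (ratio 1.14), and the ferroxidase Cp was at 10.6 and 9.53 TPM.

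In the control of hepcidin, 15 of 19 genes were detected. Hemojuvelin, the BMP co-receptor listed as Hfe2 and also known from muscle, was at 102.4 and 100.2 TPM, the transcription factor Stat3 at 45.9 and 39.1 TPM and the BMP receptor Bmpr1a at 29.8 and 29.6 TPM. Il6ra passed higher in replicate 1 (ratio 1.51), and Neo1 and Bmpr1a passed higher in replicate 2 (ratios 0.936 and 0.943), Il6ra and Neo1 being named after their values were seen. With spike-in scaling Neo1 and Bmpr1a turned to ratios of 1.00 and 1.01, and neither passed with total counts. Tmprss6, the liver protease that removes hemojuvelin, was at 0.01 and 0.07 TPM.

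Of the 18 heme genes, 17 were detected. Alas1, the housekeeping first enzyme of heme synthesis, was at 219.6 and 231.5 TPM, the last enzyme, Fech, at 72.4 and 68.6 TPM and the erythroid first enzyme, Alas2, at 55.6 and 47.6 TPM. Alas1 and Urod passed higher in replicate 2 (ratios 0.922 and 0.843), Urod being named after its values were seen. With spike-in scaling Alas1 no longer passed (ratio 0.988), while Urod still passed higher in replicate 2 (ratio 0.903). Of the 18 heme genes, 3 then passed higher in replicate 1 and 1 in replicate 2. Alas2 is also an erythroid marker, and 4 of 9 tested erythroid genes passed higher in replicate 1 and 2 higher in replicate 2 (8 and 0 with spike-in scaling); their part in the Alas2 level was not tested.

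Mitochondrial iron and iron-sulfur genes had 22 of 23 detected, at medians of 20.9 TPM in both animals. The chaperone Hspa9 was at 228.9 and 223.4 TPM, the assembly factor Bola3 at 142.8 and 134.4 TPM and the outer membrane protein Cisd1 at 121.1 and 125.2 TPM. Slc25a37, the mitochondrial iron importer, passed higher in replicate 1 (ratio 1.14), and Hspa9, Abcb10 and Cisd1 passed higher in replicate 2 (ratios 0.958, 0.882 and 0.912), Slc25a37 and Abcb10 being named after their values were seen. With spike-in scaling the ratio of Hspa9 turned to 1.03, and none of the 22 passed higher in replicate 2. All 9 cytosolic assembly genes were detected and none passed; Ciapin1 was at 28.4 and 29.3 TPM, Ciao2a at 25.0 and 25.2 TPM and Ciao2b at 25.6 and 22.9 TPM.

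Among other messengers known to carry an iron-responsive element, the hypoxia factor Epas1 was at 102.3 and 89.3 TPM, and Alas2 had the values given with the heme genes. Epas1 (ratio 1.10) and Cdc42bpa (1.11, named after its values were seen) passed higher in replicate 1. The search found the hairpin in Alas2 and Epas1, and found none in Cdc14a and Cdc42bpa. Transcripts with it held 83.0% and 87.8% of Alas2 and 99.3% and 97.5% of Epas1. In the read-based tables these shares were 68.8% and 76.1% for Alas2, and 100% in both animals for Epas1.

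**Figure D5:**
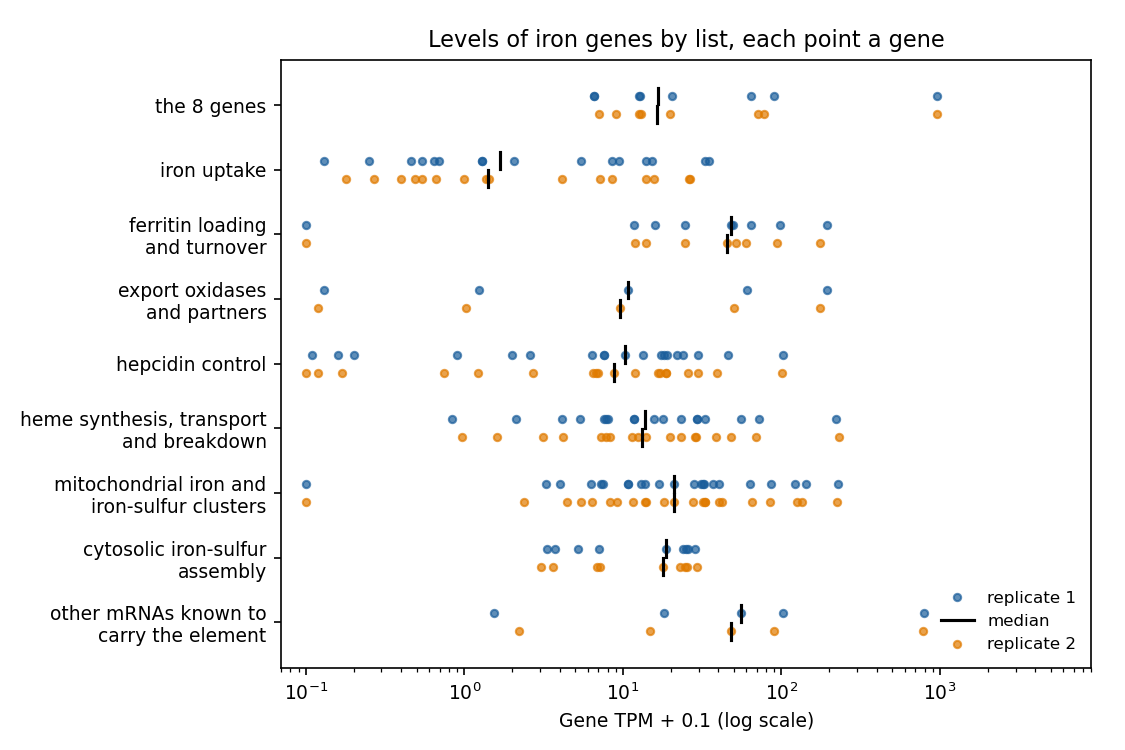
TPM plus 0.1 on a log axis for the 8 genes (top row) and for each pathway list, 1 point per gene and animal, blue for replicate 1 and orange for replicate 2, with black bars at the medians. Iron uptake partners have the lowest medians (1.58 and 1.30 TPM), and the other messengers known to carry the element have medians of 55.6 and 47.6 TPM.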

How the data were processed

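For each library there were alignment-based tables, of genes and of transcripts, and a read-based table of transcripts, on mm10 with GENCODE M21 per the deposited listings. Their tools are not given in the sources used. Expected counts and estimated counts were deposited unnormalized, per the file headers. TPM values were scaled by the authors over all entries of a table, per the file headers. Deposited score columns give a lower and an upper credibility bound for each TPM, at a level the headers leave unstated. The percent column, deposited per transcript, is its share of its gene.

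Here, read-based values were summed to genes; when a symbol had more than 1 identifier, the one with more counts was used. TMM factors came from edgeR 4.0.16 and other size factors from DESeq2 1.42.0 (R 4.3.3); no count model of either was fitted, since there is 1 library per animal. The exact binomial test and intervals used scipy 1.17.1. They were tested on simulated counts that held counting error alone, so that check does not cover spread between animals. Sequences came from the GENCODE M21 transcripts, and similar genes from BLAST 2.17.0. Detection was set at 1 TPM. Counting intervals cover counting error only. The members and lists were chosen with earlier results of these data known. Named genes were the 8, the 3 highest of each pathway list, the 2 highest of each marker list, Fth- or Ftl-named entries at 1 TPM or more, and any list gene counted as differing. Of 161 list symbols, 1 was not found. Some genes that the naming rule or the test selected are not reported here.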

Additional observations from a re-analysis of the deposited data

How the results depend on the processing

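All 8 genes were detected under every alternative tried, including levels of 0.5 and 2 TPM. Their summed TPM was 1566 read-based, 1159 with posterior means and 3011 when rescaled to protein-coding nuclear genes; leaving out a replicate gave 1172 to 1175. The number of the 8 past the adjusted p was 2 with spike-in scaling, beside 4198 of all 15839 genes tested. It was 3 with total counts, beside 3173 of 15839, and 5 with read-based counts, beside 3461 of 16592. The number of the 8 counted as differing was 1 with read-based counts, beside 340 of 16592. With spike-in scaling the log2 ratio turned to 0.014 for Fth1, 0.00060 for Aco1 and 0.019 for Ireb2. Among all genes, 340 were counted as differing with read-based counts, 25 at a mean count of at least 100, 320 at a minimum ratio of 1.5 and 292 without the credibility interval criterion; at the ratio of 1.5, 1 pathway gene, Il6ra, was counted. The hairpin form was 17.5% of Slc11a2, and 58.1% of its complete protein-coding transcripts, in the read-based tables; leaving out a replicate gave 26.1% to 26.9% and 52.3% to 56.8%. The log2 difference of Fth1 and Ftl1 was 2.44 with named entries added (2.23 read-based), and 3.43 to 3.76 leaving out a replicate. The causes of these shifts were not tested, apart from the criteria that change by construction. Ratios need both libraries, so no replicate could be left out of them. No paired analysis was possible because there is 1 group. Depth limits Hamp most, with under 100 counts in each animal.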
